A study of Homo sapiens with 6 samples.

Results

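The 8 genes described here are a set of carbonic anhydrases, aquaporins and late erythroid genes: CA1, CA2, AQP1, AQP3, HEMGN, BLVRB, RHAG and KEL. They were chosen by name from 26485 gene symbols, and CA1 and AQP1 were picked because they responded to both guides, so the knockout values of those 2 genes are a description with no test. Of the 8 genes, 7 were among the 12282 genes with enough counts to be tested, and CA2 was not. RNA was sequenced from K562, a human line grown from a chronic myeloid leukaemia that keeps erythroid features. Cells with a control guide RNA (sgNeg2), labelled WT, were compared with cells carrying sgRNA1 or sgRNA2 against the zinc-finger factor ZNF410, labelled ZNF410 KO. Each of the 3 groups had 2 libraries, numbered replicate 1 and replicate 2. All groups were K562 cells grown in the same medium, and whether a knockout line was 1 clone or a pool of cells is not given in the sources used here. The study asked how ZNF410 acts on gene expression.

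Carbonic anhydrases convert carbon dioxide and water to bicarbonate and a proton, which lets red cells carry carbon dioxide to the lung. CA1 and CA2 are the main cytosolic forms of the red cell. Aquaporins are membrane channels. AQP1 passes water and carries the Colton blood group, and AQP3 passes water and glycerol and carries the GIL blood group. HEMGN is a nuclear protein of erythroid precursors, BLVRB is a biliverdin and flavin reductase abundant in red cells, RHAG is the Rh-associated ammonium channel that the Rh complex needs at the membrane, and KEL is the Kell blood group protein, an endopeptidase linked to XK.

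In the RefSeq annotation of GRCh38.p14, AQP1 lay at chr7:30911853-30925516 on the plus strand and KEL at chr7:142941114-142962363 on the minus strand. AQP3 lay at chr9:33441160-33447593, HEMGN at chr9:97926791-97944852, BLVRB at chr19:40447768-40465745 and RHAG at chr6:49605175-49636839, each on the minus strand. The 250 bases before the annotated start were read for the genes in the RefSeq promoter table, which held 6 of the 8 members. The windows of 5 genes are shown because these genes include the highest knockout-to-control ratio of those tested (AQP1), smaller ones (HEMGN and BLVRB), one below 1 (AQP3) and no detected difference (RHAG). Capitals mark GATA-type motifs, which are AGATAA, the same with T as its first letter, and the forms of both that end in G, and CACC-type motifs, which are CCNCNCCC, on either strand. Each is written 5′ to 3′ on the gene's own strand.
AQP1: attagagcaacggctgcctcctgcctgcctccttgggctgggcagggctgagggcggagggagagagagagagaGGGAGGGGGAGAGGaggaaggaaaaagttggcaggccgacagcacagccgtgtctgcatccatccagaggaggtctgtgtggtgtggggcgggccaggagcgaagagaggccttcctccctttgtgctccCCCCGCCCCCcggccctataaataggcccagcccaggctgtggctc
HEMGN: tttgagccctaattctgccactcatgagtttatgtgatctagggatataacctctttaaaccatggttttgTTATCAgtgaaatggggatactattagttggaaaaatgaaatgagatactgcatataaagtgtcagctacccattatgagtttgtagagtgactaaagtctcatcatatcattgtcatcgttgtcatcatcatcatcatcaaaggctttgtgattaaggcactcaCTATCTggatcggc
BLVRB: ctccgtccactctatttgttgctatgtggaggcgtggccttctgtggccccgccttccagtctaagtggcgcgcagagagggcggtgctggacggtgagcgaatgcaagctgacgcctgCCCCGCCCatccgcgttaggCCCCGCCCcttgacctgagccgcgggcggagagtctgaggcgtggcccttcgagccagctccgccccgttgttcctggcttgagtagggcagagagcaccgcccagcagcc
AQP3: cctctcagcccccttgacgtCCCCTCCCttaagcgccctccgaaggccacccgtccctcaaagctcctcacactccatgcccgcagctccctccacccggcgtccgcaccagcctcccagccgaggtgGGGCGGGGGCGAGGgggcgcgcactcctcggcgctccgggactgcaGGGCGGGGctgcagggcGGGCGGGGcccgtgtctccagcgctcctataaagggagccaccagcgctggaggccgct
RHAG: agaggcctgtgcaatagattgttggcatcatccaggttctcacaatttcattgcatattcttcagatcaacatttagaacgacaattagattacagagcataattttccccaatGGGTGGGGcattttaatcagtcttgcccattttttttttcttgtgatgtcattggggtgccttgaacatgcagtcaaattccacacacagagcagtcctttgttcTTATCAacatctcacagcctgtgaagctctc
The AQP1 window at chr7:30911603-30911852 held 4 CACC-type matches, in an overlapping pair on each strand, and no GATA-type match. The HEMGN window at chr9:97944853-97945102 held 2 GATA-type matches and no CACC-type match, and the window of its second annotated start, at chr9:97938173-97938422, held 3. The BLVRB window at chr19:40465746-40465995 held 2 CACC-type matches and the AQP3 window at chr9:33447594-33447843 held 5, with no GATA-type match in either; one pair of the AQP3 matches overlaps. The RHAG window at chr6:49636840-49637089 held 1 match of each type, and the KEL window at chr7:142962364-142962613 held 2 GATA-type and 1 CACC-type match. A GATA-type match was present in 22.3% and a CACC-type match in 53.4% of 35116 windows of this length. The letters CCCATAAT, the core of the known ZNF410 motif, were in 0.399% of all windows and in no window of these 6 genes. A match is a string of letters and says nothing of binding.

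Each library held 8788816 to 9537470 whole-number counts of genes, so 3 counts, the limit that a count of 0 allows, were 0.315 to 0.341 CPM, counts scaled to a common library size. ZNF410 was counted 331 and 322 times with the control guide and 157 to 234 times in the 4 knockout libraries, and CHD4, its known target, fell from 589.53 and 666.34 CPM to 283.83 to 325.82 CPM (log2 −1.04, SE 0.0467, adjusted p = 1.38e-08 in edgeR with the replicate block). In the main edgeR fit, which has no block, neither ZNF410 nor CHD4 was called (adjusted p = 0.127 for CHD4). The guides' cut sites were not given, so the ZNF410 counts do not show how much protein was left. All 9 K562 markers were detected and tested. Libraries differed by replicate number more than by guide: with all 3 groups in the fit, 21.6% of tested genes were higher and 23.5% lower in replicate 2 (edgeR quasi-likelihood test, adjusted p under 0.05). The meaning of the numbers is not given in the labels, nor whether replicates were separate cultures, so p-values measure the spread between these libraries, which may be technical. In bulk RNA, fewer cells of a type and less RNA per cell cannot be told apart.

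Levels between genes are compared as deposited FPKM, the authors' fragment counts scaled by gene length and library depth. In the control libraries BLVRB was highest at 414.62 and 450.36 FPKM, followed by RHAG at 277.37 and 362.18, HEMGN at 91.58 and 137.79, CA1 at 65.01 and 77.28 and AQP3 at 36.83 and 47.91 FPKM. The control values of these 5 genes did not overlap between neighbours in this order. KEL at 9.64 and 20.45 FPKM and AQP1 at 6.62 and 10 FPKM overlapped, and CA2 was listed at 0. In the knockout libraries CA1 at 136.1 to 160.3 FPKM overlapped HEMGN at 125.14 to 181.09 FPKM, which it had not done in the controls. AQP1 at 17.74 to 21.76 FPKM overlapped KEL at 5.64 to 21.77 FPKM and had the higher mean there, whereas KEL had the higher mean in the controls. AQP1 stayed below AQP3 at 27.93 to 43.78 FPKM.

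**Figure D1:**
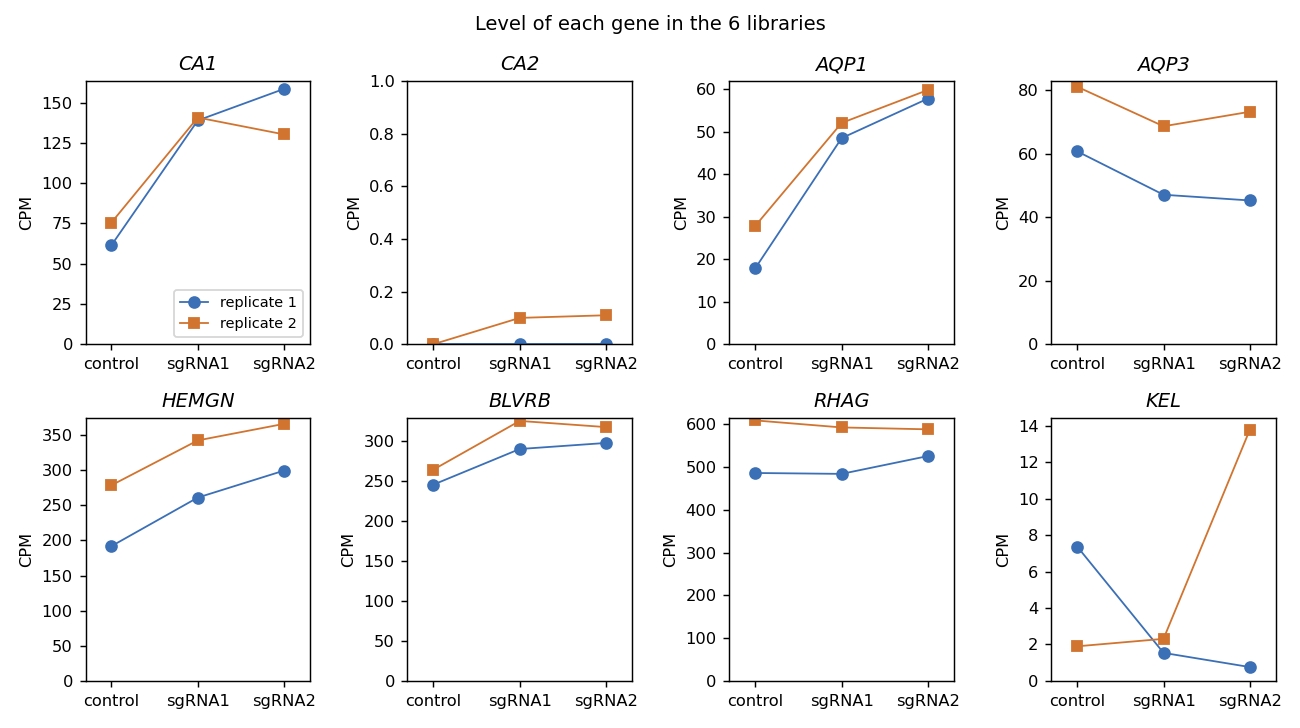
CPM of each gene (vertical axes, from 0) in the control, sgRNA1 and sgRNA2 libraries, with a line joining the libraries of replicate 1 (circles) and of replicate 2 (squares). CA1, AQP1 and BLVRB are higher in every knockout library than in both controls, as are 5.05% of tested genes. AQP3 and HEMGN differ within each number, and KEL has 1 high library at 13.8 CPM.

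CA1, the most abundant carbonic anhydrase of these cells by FPKM, was higher in every knockout library than in both controls. It stood at 61.47 and 75.55 CPM with the control guide, at 139.00 and 140.81 with sgRNA1 and at 158.62 and 130.31 with sgRNA2, with replicate 1 first in each case. The libraries of the 2 guides overlapped. Of all tested genes, 5.05% had every knockout library above both controls, and CA1 was picked for its response. In the fit with the replicate block, knockout exceeded control by 1.05 on the log2 scale (SE 0.0926), a ratio of 2.07. The value was 1.03 (SE 0.105) with sgRNA1 and 1.07 (SE 0.105) with sgRNA2. These guide values share the control libraries. CA1 overlaps CA3 on the opposite strand over 5579 bases in GENCODE, and CA3 had 6 to 12 counts per library against 533 to 1467 for CA1.

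CA2, the high-activity red cell form, was not detectable at this depth. It had 1 count in sgRNA1 replicate 2, 1 count in sgRNA2 replicate 2 and 0 in the other 4 libraries, all under the 3 counts that a count of 0 allows. Of 13 other carbonic anhydrases 7 were tested, and none passed the test by genotype with or without the block. Their median blocked log2 fold change was −0.12, against 0.00 over all tested genes. CA4, CA5A, CA6 and CA10 were at 0 in every library. CA8, a family member without enzyme activity, had the largest change of those averaging 50 counts or more. It stood at 65.50 and 108.47 CPM in the controls and at 85.95 to 123.09 CPM in the knockout libraries. It was above the control of its own number in 4 of 4 (log2 0.31, SE 0.077, adjusted p = 0.0544 with the block), an order found in 16.2% of tested genes. In the estimated counts CA8 rose (log2 0.33, SE 0.0641, adjusted p = 0.0145), where 1.97% of genes were called higher. This was the only call in 6 blocked settings with all libraries (adjusted p 0.0145 to 0.201). In whole-number counts it was called in 1 of 6 blocked fits without 1 library, at 0.48 without control replicate 2 (adjusted p = 0.0105), and was 0.17 without control replicate 1 (adjusted p = 0.575).

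AQP1 had the largest ratio of the 7 genes tested. Its level was 17.88 and 27.86 CPM with the control guide, 48.53 and 52.11 for sgRNA1, and 57.85 and 59.88 for sgRNA2. The 3 groups did not overlap, and sgRNA2 was the highest. Of all tested genes, 5.05% had all 4 knockout libraries above both controls. AQP1 was picked for its response, so this order is no test, and the order of the guides was not tested. With the block the log2 difference was 1.26 (SE 0.127), a ratio of 2.40, with 1.14 (SE 0.132) for sgRNA1 and 1.37 (SE 0.13) for sgRNA2 against the same controls. Without control replicate 1 the unblocked value was 0.96, and without control replicate 2 it was 1.61. A GENCODE read-through model, AC004691.2, overlaps AQP1 on the same strand over 12119 bases and has no row in the count table.

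AQP3 moved the other way within each replicate number, but no test of it passed in all 6 libraries. It stood at 60.78 and 81.14 CPM with the control guide, 47.10 and 68.68 for sgRNA1, and 45.30 and 73.25 for sgRNA2. Each knockout library was below the control of its number, while replicate 2 of each guide was above replicate 1 of the control. Its log2 fold change missed the threshold with the block (−0.29, SE 0.0731, adjusted p = 0.0628) and without it (−0.28, SE 0.237, adjusted p = 1.00). The unblocked value was −0.48 without control replicate 1 and −0.05 without control replicate 2. With the block the adjusted p was 0.0475 to 0.453 when 1 library was left out, and it passed in 1 of 6 such fits, that without control replicate 2. In every fit that leaves out 1 library, the other library of its group is assumed to vary like the other groups, which supply the spread. Of all tested genes, 14.9% were below the control of their number in all 4 knockout libraries.

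Of 12 other aquaporins only AQP10 and AQP11 were tested, and neither was called. AQP10, named here after its values were seen, had 31 to 64 counts and a blocked log2 fold change of −0.29 (SE 0.228, adjusted p = 0.652). AQP11 had 16 to 32 counts and 0.03 (SE 0.33, adjusted p = 0.983). AQP2, AQP4, AQP5, AQP12A and AQP12B were at 0 throughout. Of 7 bicarbonate transporters 4 were tested and none was called. SLC4A7, a sodium-bicarbonate cotransporter, was at −0.13 (SE 0.128, adjusted p = 0.733).

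HEMGN and BLVRB rose in the fit with the replicate block, in which 1.19% of tested genes were called higher and 0.651% lower. They were 2 of the 5 tested members that had not been picked for their response. Without the block 0% of genes were called (284 had an unadjusted p under 0.05, and the DESeq2 Wald test without block called 19). The members were chosen with results known, so this count is no evidence about the set.

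HEMGN, the erythroid nuclear protein, was at 191.90 and 278.56 CPM with the control guide. The sgRNA1 libraries had 261.04 and 342.44 CPM, and the sgRNA2 libraries had 299.51 and 366.03 CPM. Every knockout library was above the control of its number (as for 16.2% of tested genes), but sgRNA1 replicate 1 was below control replicate 2, so the groups overlapped. Its log2 rise was 0.44 with the block (SE 0.0675, adjusted p = 0.00255), and the unblocked value of 0.43 was not called (SE 0.191, adjusted p = 1.00). By guide it was 0.37 (adjusted p = 0.0153) with sgRNA1 and 0.51 (adjusted p = 0.00107) with sgRNA2, where 0.676% and 0.871% of genes were called higher. HEMGN was called in 5 of 6 blocked settings that used all libraries, with adjusted p from 2.06e-06 to 0.172, and in 5 of 6 blocked fits without 1 library. Without control replicate 1 it was 0.34 (adjusted p = 0.0503). The unblocked value was 0.18 without control replicate 1 and 0.73 without control replicate 2. The calls with sgRNA1 alone held in 3 of 6 blocked settings and those with sgRNA2 in 5 of 6.

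BLVRB changed less but without overlap. It was at 244.95 and 263.69 CPM in the controls, 289.44 and 324.51 in the sgRNA1 libraries, and 297.02 and 316.80 in the sgRNA2 libraries, so that every knockout library was above both controls. This order was found in 5.05% of tested genes, and the opposite order in 4.40%. With the block it rose by 0.27 on the log2 scale (SE 0.0508, adjusted p = 0.0113), a ratio of 1.21, and the unblocked 0.27 was not called (SE 0.0847, adjusted p = 1.00). With sgRNA1 it was 0.27 (adjusted p = 0.0499) and with sgRNA2 0.27 (adjusted p = 0.0362). BLVRB was called in 5 of 6 blocked settings with all libraries and in 4 of 6 blocked fits without 1 library (adjusted p 0.0196 to 0.0814). Without control replicate 1 or control replicate 2 it was not called (adjusted p = 0.07 and 0.0814), and with each guide alone it was called in 2 of 6 blocked settings.

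The other biliverdin reductase, BLVRA, also rose with the block (log2 0.51, SE 0.0913, adjusted p = 0.00847). BLVRA was called in 5 of 6 blocked settings with all libraries (adjusted p 0.00646 to 0.128). In blocked fits without 1 library its log2 fold change was 0.43 to 0.58. It was at 31.37 and 28.38 CPM in the controls and 36.52 to 47.87 CPM in the knockout libraries. Every knockout library was above both controls, an order found in 5.05% of tested genes. The haem oxygenases, which make the biliverdin, gave no such values. HMOX1 was at 0 counts in every library, which allows up to 3 counts. HMOX2 was called lower in the whole-number counts (log2 −2.52, SE 0.571, adjusted p = 0.0337), but it had 271 counts in control replicate 2 against 14 to 23 in the other 5 libraries, and without that library its value with the block was 0.43. Those counts were 4.54% of its estimated counts, in which its log2 fold change was −0.15 (SE 0.0608, adjusted p = 0.234).

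**Figure D2:**
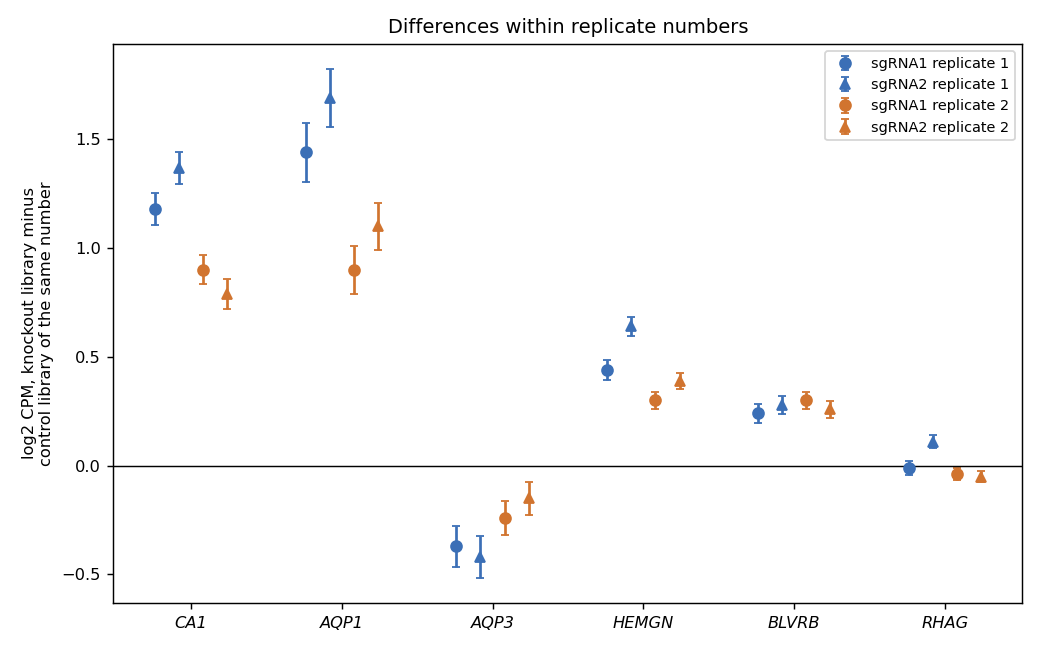
Log2 CPM of each knockout library minus the control library of the same number (vertical axis, with 0 as a line) for 6 genes, with sgRNA1 as circles and sgRNA2 as triangles, replicate 1 in blue and replicate 2 in orange. Bars are counting standard errors. CA1 and AQP1 lie between 0.79 and 1.69, and AQP3 lies between −0.42 and −0.15.

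No difference by genotype was detected for RHAG. It was at 486.20 and 609.15 CPM in the controls, 484.12 and 592.72 in the sgRNA1 libraries, and 525.82 and 588.28 in the sgRNA2 libraries. The groups overlapped, and 1 of 4 knockout libraries was above the control of its number. Its log2 difference with the block was 0.00 (SE 0.0509, adjusted p = 0.986), with a 95% interval from −0.10 to 0.11.

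KEL gave different values in the 2 count tables. Its whole-number counts were 64 and 18 with the control guide, 14 and 22 with sgRNA1 and 7 and 127 with sgRNA2. Its estimated counts were 373 and 856, 230 and 866, and 268 and 859 in the same order. The whole-number count was 7.3% of the estimated count for KEL against a median of 55.3% over tested genes, and no other gene overlaps KEL in GENCODE. In the estimated counts replicate 2 was the higher number in each group, and the groups overlapped. KEL was not called by genotype in either table, at −0.40 (SE 0.808, adjusted p = 0.894) for whole-number counts, and at −0.26 (adjusted p = 0.343) for estimated counts, both with the block. Without control replicate 2 the whole-number value with the block was −2.67, and without control replicate 1 it was 2.06. With sgRNA1 it was −3.58 without control replicate 2. With sgRNA2 the values went in both directions. They were 2.53 without control replicate 1 and 2.17 without sgRNA2 replicate 1, and −1.97 without control replicate 2 and −2.88 without sgRNA2 replicate 2. These fits leave 1 library in a group, so only their values are given here. The cause of the gap between the tables was not tested.

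**Figure D3:**
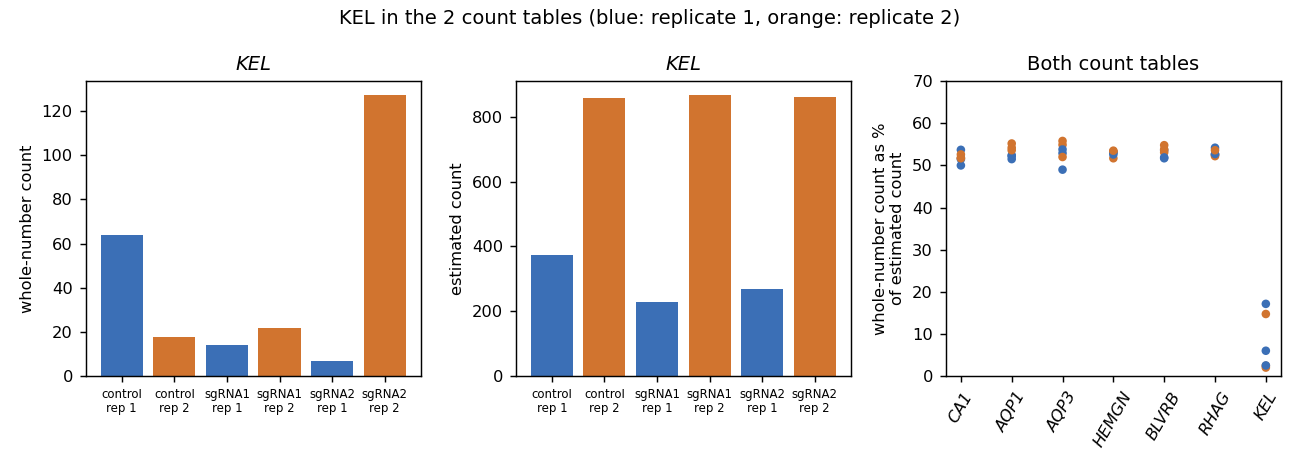
Whole-number counts (left, bars from 0) and estimated counts (middle, bars from 0) of KEL in the 6 libraries, and the whole-number count as a percent of the estimated count for 7 genes (right, 1 point per library), with replicate 1 in blue and replicate 2 in orange. The left bars reach 127 in sgRNA2 replicate 2, while the middle bars are higher in replicate 2 of every group, and KEL alone lies far below the other genes on the right.

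The partners of RHAG and KEL in the membrane were mixed. Of 9 genes of the Rh, Kell and band 3 complexes, all were tested, 1 rose and 1 fell with the block (1.19% and 0.651% of all tested genes), and the median log2 fold change was 0.17 against 0.00 over all tested genes. GYPB, glycophorin B, rose by 0.57 (SE 0.133, adjusted p = 0.0391) and was called in 1 of 6 blocked fits without 1 library, against 3 of 6 for CD47. GYPB belongs to a family with near-identical stretches, so its reads could be split and its values are uncertain. CD47, a surface protein of the Rh complex that signals to macrophages, fell by 0.40 (SE 0.0879, adjusted p = 0.0309), from 72.65 and 49.59 CPM to 38.91 to 55.36 CPM. Without 1 library CD47 was −0.51 to −0.28 and GYPB 0.53 to 0.62 with the block. With blocked and unblocked fits together, CD47 was −0.66 to −0.12 and GYPB 0.18 to 1.07. XK, to which KEL is bound, was not called in whole-number counts (log2 0.23, SE 0.0903, adjusted p = 0.263) but rose in estimated counts (log2 0.30, SE 0.0657, adjusted p = 0.0293). It was above the control of its number in 4 of 4 knockout libraries, as were 16.2% of tested genes. In estimated counts 2 of the 9 genes, GYPB and XK, rose and CD47 fell, where 1.97% and 1.07% of all genes did.

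**Figure D4:**
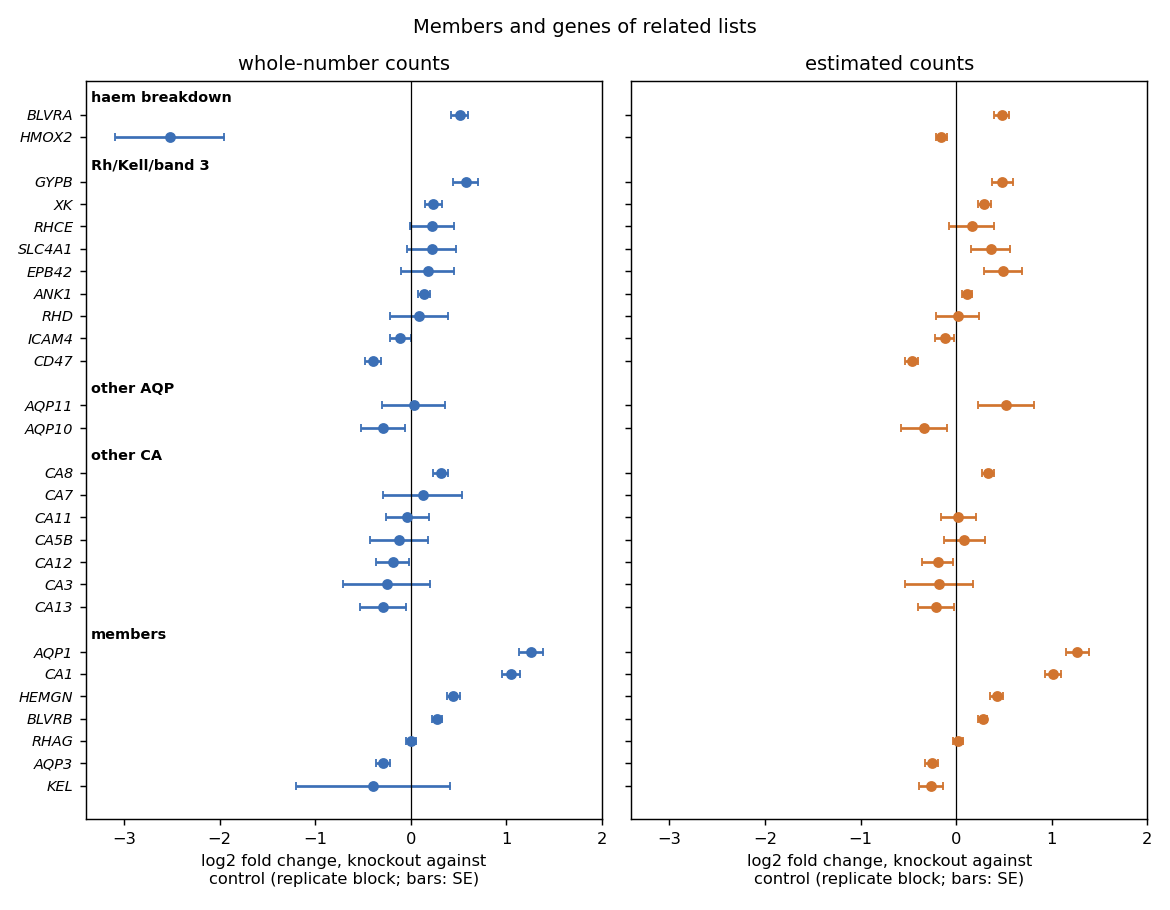
Log2 fold change of knockout against control (horizontal axis, replicate block, bars are SE) for the tested members and the tested genes of 4 related lists, in whole-number counts (left) and estimated counts (right). AQP1 and CA1 lie at 1.26 and 1.05 on the left, HMOX2 lies at −2.52 on the left and −0.15 on the right, and CA8 lies at 0.31 and 0.33.

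Among 36 other late erythroid genes 30 were tested. With the block 3 rose, 1 fell and 26 did not pass, where 1.19% of all tested genes rose and 0.651% fell, the median log2 fold change was 0.12, and 21 of 30 were above 0, against 51.6% of all tested genes. HBB, the adult beta globin, rose by 1.40 (SE 0.257, adjusted p = 0.00976). Its counts were low, at 9 and 72 in the controls, 41 and 171 with sgRNA1 and 53 and 129 with sgRNA2. FECH, the enzyme that puts iron into haem, rose by 0.31 (SE 0.0745, adjusted p = 0.0472), and SELENBP1, a selenium-binding protein of red cells, rose by 0.36 (SE 0.0856, adjusted p = 0.0462). XPO7, a nuclear exporter, fell by 0.22 (SE 0.0523, adjusted p = 0.0448) and was not called in estimated counts (adjusted p = 0.0917). In blocked fits without 1 library HBB was called in 5 of 6, FECH in 1 of 6, and SELENBP1 and XPO7 in 0 of 6. HBB was 2.29 without control replicate 2 (adjusted p = 0.00501) and 1.07 without control replicate 1, and it was not called without sgRNA1 replicate 2 (1.37, adjusted p = 0.0651). Without the block it was 3.33 without control replicate 2 and 0.47 without control replicate 1. In estimated counts 7 of 31 tested genes of this list rose and none fell, where 1.97% of all genes rose and 1.07% fell. None of the 30 was called without the block.

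Of 12 erythroid transcription factors 11 were tested and 1 fell in whole-number counts with the block, where 0.651% of all tested genes did. MYB, a factor of immature erythroid cells, fell by 0.28 (SE 0.057, adjusted p = 0.0206, called in 3 of 6 blocked fits without 1 library), from 343.66 and 219.37 CPM to 190.30 to 279.86 CPM. In estimated counts MYB fell (log2 −0.28, adjusted p = 0.00985), and TAL1 (log2 0.25, adjusted p = 0.0291) and ZFPM1 (log2 0.40, adjusted p = 0.0343) rose, where 1.07% of all genes fell and 1.97% rose. In whole-number counts TAL1 was at 0.21 (adjusted p = 0.118) and ZFPM1 at 0.41 (adjusted p = 0.0569). BCL11A was at 0 whole-number counts in every library. Of the 9 K562 markers, the globins HBZ (log2 0.64, adjusted p = 0.00559), HBE1 (0.92, adjusted p = 6.42e-06), HBG1 (0.59, adjusted p = 0.00362) and HBG2 (0.32, adjusted p = 0.00207) rose with the block, as did 1.19% of all tested genes. HBZ was called in 2 of 6 blocked settings that used all libraries, and HBE1, HBG1 and HBG2 in 5 of 6 each. With the block, HBZ was 0.26 without control replicate 2 (adjusted p = 0.197), and HBG1 was 0.38 without control replicate 1 (adjusted p = 0.0619). Without the block none was called, and leaving out control replicate 1 or control replicate 2 gave 0.17 or 1.95 for HBZ, 0.30 or 2.52 for HBE1 and 0.10 or 1.17 for HBG1. HBG1 and HBG2 are near-identical and their values are uncertain. The whole-number count was 4.74% of the estimated count for HBG1, 21.4% for HBG2 and 23.2% for HBZ, against the median of 55.3%. In estimated counts their log2 fold changes were 0.41, 0.43 and 0.56 (adjusted p = 0.000372, 0.000213 and 0.0315).

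Each guide was also compared with the other, which needs no shared control. In the blocked fit 0.0896% of genes differed between sgRNA2 and sgRNA1, and none of the 5 tested members that had not been picked for their response was among them. AQP3, HEMGN, BLVRB and RHAG had log2 differences of 0.00 to 0.15, and their 95% intervals lay between −0.17 and 0.29. HEMGN was 0.15 higher with sgRNA2 (SE 0.0666, unadjusted p = 0.0439, adjusted p = 0.999, edgeR). KEL was 1.74 higher in whole-number counts (SE 0.842, adjusted p = 0.999, 95% interval −0.07 to 3.54), with 7 and 127 counts in the sgRNA2 libraries, and 0.097 higher in estimated counts (SE 0.146, adjusted p = 0.982). Its whole-number value with the block was −1.80 without sgRNA2 replicate 2 and 3.28 without sgRNA2 replicate 1. It was 1.56 without control replicate 1 and 1.61 without control replicate 2. As a description with no test, sgRNA2 exceeded sgRNA1 by 0.05 for CA1 and by 0.23 for AQP1.

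The libraries were also compared by replicate number, a contrast that the rule for CA1 and AQP1 did not use. AQP3, HEMGN and RHAG were higher in replicate 2, and CA1, AQP1 and BLVRB did not pass in edgeR with all libraries and TMM scaling. AQP3 was higher by 0.55 (SE 0.0733, adjusted p = 3.56e-05), HEMGN by 0.40 (SE 0.055, adjusted p = 4.2e-05) and RHAG by 0.26 (SE 0.048, adjusted p = 0.000557), each in 3 of 3 groups. These calls held in all 12 settings run. That is 3 of 7 tested members, where 21.6% of all genes were called higher.

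AQP1 was 0.22 higher in replicate 2 (SE 0.103, adjusted p = 0.0989) and BLVRB 0.12 higher (SE 0.0485, adjusted p = 0.0541). BLVRB passed in 4 of 12 settings, which were with all libraries DESeq2's size factors within edgeR (adjusted p = 0.0491) and limma on log2(FPKM + 1) (adjusted p = 0.0316), and the fits without control replicate 1 (adjusted p = 0.0373) and without control replicate 2 (adjusted p = 0.0457). AQP1 passed in 2 of 12, at 0.33 without sgRNA2 replicate 1 (adjusted p = 0.0322) or sgRNA2 replicate 2 (adjusted p = 0.0255). CA1 was at −0.01 (SE 0.0834, adjusted p = 0.922). In the control group CA1 was 1.23-fold and AQP1 1.56-fold higher in replicate 2, whereas with sgRNA2 the ratios were 0.822 and 1.04. KEL was not called in whole-number counts (0.76, SE 0.714, adjusted p = 0.412) but was higher in replicate 2 in estimated counts (1.55, SE 0.121, adjusted p = 5.02e-07), where 25.5% of genes were. The whole-number value was 2.55 without control replicate 1 and 2.58 without control replicate 2. It was −0.91 without sgRNA2 replicate 1 and −0.88 without sgRNA2 replicate 2.

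Of the 30 tested late erythroid genes, 15 were higher and 4 lower in replicate 2, where 21.6% and 23.5% of all tested genes were. The summed levels of markers of other blood cells were lower in replicate 2, in each list with 1 gene called (ITGA2B, LYZ and CD3D). The summed level of 10 megakaryocyte markers was 31.3 to 38.5 CPM in replicate 1 and 6.33 to 9.78 CPM in replicate 2, in replicate 1 mostly from ITGA2B, while GP9, GP1BB, PF4 and VWF were at 0 whole-number counts. Other markers of this list did not follow ITGA2B. In the FPKM table GP1BB was at 54.69, 61.60 and 71.48 in replicate 1 and at 105.90, 92.86 and 93.20 in replicate 2 (control, sgRNA1 and sgRNA2), and GP1BA was not called in counts (0.14, adjusted p = 0.767). The megakaryocyte sum was above the control of its number in 4 of 4 knockout libraries (31.3 CPM in the control of replicate 1 and 6.33 CPM in that of replicate 2), and ITGA2B was at 0.42 by genotype with the block (adjusted p = 0.251). The sum of 11 granulocyte and monocyte markers was 12.7 to 17.9 CPM in replicate 1 and 2.74 to 4.78 CPM in replicate 2, mostly from LYZ, with ELANE, CTSG, S100A8 and S100A9 at 0. The sum of 6 lymphocyte markers was 13.3 to 21.6 CPM in replicate 1 and 3.56 to 5.33 CPM in replicate 2, in replicate 1 mostly from CD3D, with MS4A1 at 0. The 6 fibroblast and epithelial markers summed to 496 to 544 CPM and 347 to 395 CPM, mostly from KRT8 and EPCAM. By genotype the sum was above the control of its number in 3 of 4 knockout libraries for the granulocyte and monocyte markers, 1 of 4 for the lymphocyte markers and 0 of 4 for the fibroblast and epithelial markers. In these marker lists, COL1A1 alone was called in whole-number counts and rose by genotype with the block, from 0 and 1 counts to 8 to 14 counts (adjusted p = 0.0273). COL1A1 was called in 2 of 4 blocked settings that used all libraries and in 1 of 6 blocked fits without 1 library, with log2 values from 3.10 without control replicate 1 to 6.66 without control replicate 2. In estimated counts EPCAM fell (log2 −0.22, SE 0.0516, adjusted p = 0.0410). The part of these markers in the members' values was not tested.

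**Figure D5:**
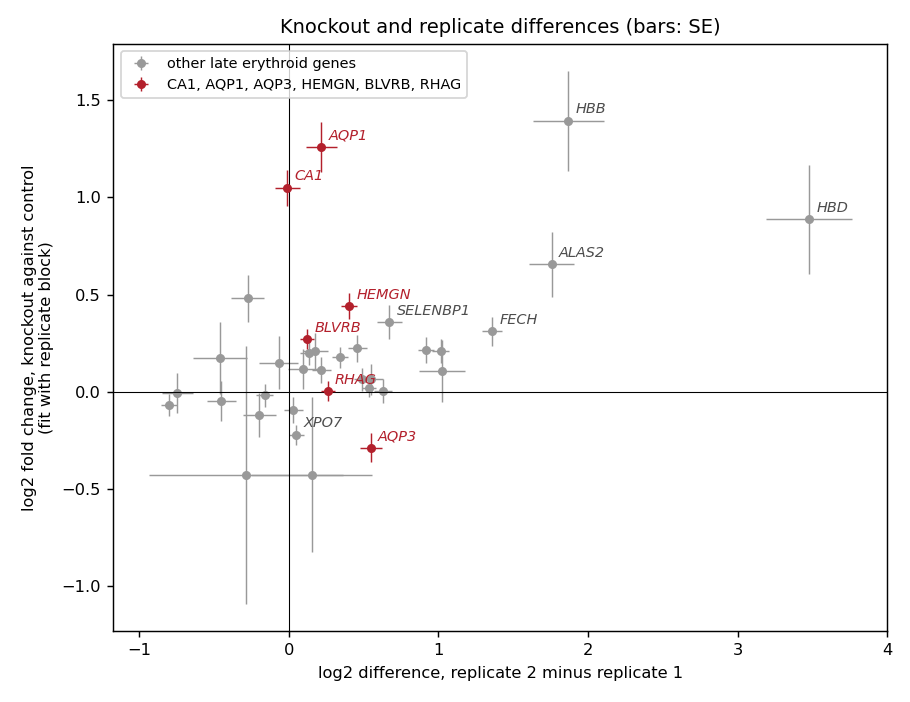
Log2 fold change of knockout against control with the replicate block (vertical axis) against the log2 difference of replicate 2 from replicate 1 (horizontal axis) for 6 members (red) and the 30 tested other late erythroid genes (grey), with bars for SE. CA1 and AQP1 stand high on the vertical axis near 0 on the horizontal one, AQP3 lies below 0 on the vertical axis and right of 0, and HBB is high on both. ALAS2 and HBD are labelled for their large replicate difference.

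The knockout effect was then compared between replicate numbers by an interaction term. With all 6 libraries 0.244% of genes were called, and none of the 5 tested members not picked for their response was among them. For CA1 and AQP1 the paired differences are a description with no test. The paired differences of CA1 were 1.18 with sgRNA1 and 1.37 with sgRNA2 in replicate 1, and 0.90 and 0.79 in replicate 2, so both guides had the larger value in replicate 1. AQP1 had 1.44 and 1.69 in replicate 1 and 0.90 and 1.10 in replicate 2. For BLVRB the 4 differences were 0.24 to 0.30 and the interaction was 0.02 (SE 0.1, adjusted p = 0.966).

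Genes with the pattern most like each member were sought among the 9966 genes averaging 50 counts or more, by Pearson's r of log2 CPM over the 6 libraries. The libraries share replicate numbers and groups, so with so few points many genes reach a high r, and it is given as a description. For CA1 these were TPRA1 (r = 0.987), SRD5A1 (0.986) and ZFPM1 (0.981). ZFPM1, the GATA1 partner FOG1, was at 23.53 and 27.96 CPM in the controls and 33.15 to 35.14 CPM in the knockout libraries. For AQP1 they were ARAP1 (0.998), CHKA (0.984) and INPP5F (0.978), and for AQP3 HEATR5B (0.997), ADAT1 (0.995) and CCAR1 (0.993). For HEMGN they were HSD11B2 (0.996), SBF1 (0.993) and CRYAB (0.991), for BLVRB SCML2 (0.993), CSPG5 (0.992) and CTSE (0.991), and for RHAG SVIL-AS1 (0.998), KIAA0922 (0.997) and TP53BP2 (0.997).

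KEL averaged under 50 counts and was left out. With the mean of each replicate number taken off, mostly other names came up. They were GNB2, SEC24D and BEGAIN for CA1 (r = 0.997, 0.997 and 0.996), MYL4, ARAP1 and CTCFL for AQP1 (0.999, 0.998 and 0.997) and CD164, PELI2 and TTC33 for AQP3 (0.998, 0.998 and 0.996). For HEMGN they were INPP5F, HSD11B2 and RELN (0.999, 0.998 and 0.995), for BLVRB ZNF441, AKAP12 and EEF1A2 (0.999, 0.999 and 0.998) and for RHAG RDH10, STARD5 and COQ5 (0.995, 0.995 and 0.994). ARAP1 for AQP1 and HSD11B2 for HEMGN were named by both measures.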

How the data were processed

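RNA-seq of K562 cells was analysed from the deposited tables. Per the submitters' processing notes, the tools named were Trim Galore, HISAT2 2.2.1, SAMtools 1.9, HTSeq 0.6.1, RSEM 1.3.2 and DESeq2 1.36.0, with build hg38. The strand setting is not given in the sources used here. The authors deposited whole-number counts per gene symbol. Per the file headers, the other deposited table gave each gene's estimated count (an expected count that need not be whole), TPM and FPKM. FPKM and TPM were normalized by the authors for length and depth, and TPM was not used. Rows for reads given to no gene (61.6% to 62.6% of each table) were left out.

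Tests on counts used edgeR 4.0.16 and R 4.3.3 (quasi-likelihood F-test, TMM, filterByExpr by group, Benjamini-Hochberg adjusted p under 0.05 over all tested genes). CPM are TMM-scaled. SE is the log2 fold change over the square root of F. Paired log2 differences added a pseudocount of 0.5 counts. Genotype contrasts used all 6 libraries, without a block (main) and with a block for the replicate number. Deviations from group means correlated between same-numbered libraries over 9966 genes (r = 0.81, 0.756 and 0.823), so the libraries were treated as paired by number. The pairing comes from the data, not from the labels. The common dispersion was 0.0585 without and 0.00381 with the block. Residual degrees of freedom were 4 and 3 by genotype and 3 and 2 by guide, and fewer in fits without 1 library. Replicates differed beyond sampling noise (chi-square per degree of freedom 23.3 to 27.6), so no library was counted as a repeat. Estimated counts were rounded before testing. Procedures were tested on simulated data.

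Members and lists were chosen with earlier results of these data known. Some genes of these lists are not reported here, and the list counts leave them out. All members were named, with the genes of each list called by genotype with the block or, where none was, the one with the largest change among those averaging 50 counts or more, and for each member with that mean the 3 genes of highest correlation. Other settings were the replicate block, DESeq2 1.42.0 size factors, its Wald test with and without the block, no filter, estimated counts, limma 3.58.1 on log2(FPKM + 1) or log2(FPKM + 0.1), and leaving out each library. Promoter windows came from RefSeq.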

Additional observations from a re-analysis of the deposited data

Results flagged for a closer look

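KEL gave both results that stood apart. Among the 4 knockout libraries its level in sgRNA2 replicate 2 was 13.8 CPM (127 counts), far from the 0.76 to 2.31 CPM of the other 3. How often such a gap arises by chance was not tested. In the estimated counts the same library had 859, next to 866 in sgRNA1 replicate 2.

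The knockout-minus-control difference of KEL also went in opposite directions in the 2 replicate numbers. The paired log2 differences were −2.22 with sgRNA1 and −3.20 with sgRNA2 in replicate 1, and 0.27 and 2.83 in replicate 2, so the mean difference in replicate 2 exceeded that in replicate 1 by 4.26. In the interaction test the fitted value was 4.74 (SE 1.02, edgeR adjusted p = 0.0690), and in estimated counts it was 0.72 (adjusted p = 0.0906), where 0.110% of genes were called. Without 1 library it was 2.95 to 5.52 in whole-number counts, with 5.33 without sgRNA1 replicate 1 and 5.52 without sgRNA1 replicate 2. The cause was not tested.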

How the results depend on the processing

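CA1 and AQP1 kept their direction by genotype and with each guide in all 22 settings run. Their values were between 0.82 and 1.29 for CA1 and between 0.84 and 1.72 for AQP1. Both were picked for responding to both guides in these same libraries, so their kept direction is no support. HEMGN and BLVRB also kept their direction in these settings. HEMGN and BLVRB were called only in fits with the replicate block, which changed no call of AQP3, RHAG or KEL over all 6 libraries (CA1 and AQP1 have no test). By genotype the block turned 0 calls over all genes into 226, and 0 became 109 with sgRNA1, 170 with sgRNA2 and 11 between the guides. The DESeq2 Wald test gave 19, 6 and 4 for these genotype and guide contrasts without the block, and 162, 53, 76 and, between the guides, 4 with it. Estimated counts with the block gave 387, 178, 289 and 7. The limma fits with the block gave 194, 44, 94 and 2 on log2(FPKM + 1), 212, 40, 84 and 3 on log2(FPKM + 0.1), and 15, 3, 1 and 0 with no FPKM filter. With no filter on counts 1 gene was called by genotype. Leaving out each library gave 0 to 236, 0 to 459, 0 to 634 and 0 to 90 calls, of which at most 2 in any fit without the block. Between replicate numbers 5529 genes were called, and 3438 by the DESeq2 Wald test. For the interaction 30 were called, 11 by DESeq2, 14 in estimated counts, 9 by limma and 12 with no filter, and 35 to 96 without 1 library; fits without a control library were not run because the term cannot be estimated.

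Several values changed sign. RHAG by genotype was −0.0040 by DESeq2, −0.0039 with its size factors and −0.0093 with no filter, and −0.16 to 0.17 without 1 library. With sgRNA1 it was 0.0020 in estimated counts and 0.0013 in each limma fit, and −0.19 to 0.15 without 1 library, and with sgRNA2 −0.14 to 0.20. CA1 between replicate numbers was 0.0054 by DESeq2, 0.019 in estimated counts and 0.032 by limma, and −0.13 to 0.15 without 1 library. The interaction of BLVRB was −0.027 in estimated counts, −0.0011 by limma and −0.00058 to 0.042 without 1 library. AQP3 with sgRNA2 was −0.65 to 0.04, and HEMGN between the guides −0.042 to 0.35, without 1 library. KEL with sgRNA2 was −0.21 in estimated counts and −0.24, −0.22 and −0.22 by limma. Without 1 library KEL was −2.67 to 2.06 by genotype, −3.58 to 0.96 with sgRNA1, −2.88 to 2.53 with sgRNA2 and −0.91 to 2.58 between replicate numbers. Over fits without 1 library, with and without the block together, CA8 by genotype was −0.031 to 0.70, HMOX2 −4.06 to 0.43, FECH −0.19 to 1.12, MYB −0.58 to 0.062 and HBG2 −0.13 to 0.95. With the block alone CA8 (0.17 to 0.48), FECH (0.25 to 0.37), MYB (−0.35 to −0.20) and HBG2 (0.28 to 0.34) kept their sign and HMOX2 did not. The cause was not tested. At this depth CA2 could not be measured.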
